A study of Mus musculus with 2 samples.

Results

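The Rhox genes are a cluster of homeobox genes on the mouse X chromosome, and 5 of them were measured in embryonic stem cells that lacked the Akt cofactor Tcl1 or carried it again as a transgene. The members Rhox5, Rhox6, Rhox9, Rhox11 and Rhox13 were taken by gene symbol, 1 probe each, out of 19087 named genes and 30110 entries in all. They were chosen by symbol with the log2 ratios of these same 2 arrays already known, so their values are a description and carry no test. Rhox5 had the lowest mean log2 ratio of all 30110 entries. Rhox6, Rhox9 and Rhox13 also lay below 0 on both arrays, and Rhox11 did not.

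Each array compared 2 RNAs from stem cells kept with LIF on gelatin without feeders. In the disruptants a puromycin cassette replaced parts of exons 2 and 3 of both Tcl1 copies, and the transformants were Tcl-/- clone 4 cells that had also received a CAG promoter vector for Tcl1 with a zeocin marker. Array 1 set Tcl1 stable transformant clone 1, in Cy5, against Tcl1 gene disruptant clone 4, in Cy3. Array 2 had the dyes the other way round, so that Cy3 marked transformant clone 4 and Cy5 marked disruptant clone 6, the latter stably transfected with CAG-EGFP. Every RNA on both arrays therefore came from cells with the disrupted locus, each side of an array was 1 clone, and the transformants share clone 4 as their origin. An effect of Tcl1 and a difference between single clones cannot be told apart with these groups, and the vectors differed between the sides as well.

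Values are log2 ratios of transformant over disruptant, so a value of −1 is a 2-fold lower signal in the transformant. They were read from deposited numbers taken as log10 of Cy5 over Cy3. That direction is likely, being the convention of the scanner program, but is unstated, and under the opposite reading all signs turn. Over all entries the medians were 0 and 0 and the spread was 0.46 (SD) on array 1 and 0.50 on array 2. The ratios ran weakly against each other over the entries (Pearson r = −0.19, across genes, which are not replicates). Tcl1 itself gave −0.37 and 0.17 from a probe whose position relative to the replaced exons is unknown here, and neither labels nor direction can be checked with it. Ratios hold no absolute level, so whether markers of embryonic stem cells were present could not be checked. No value could be set against background, because channel intensities were not used here.

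Rhox is short for reproductive homeobox, and the genes encode paired-like homeodomain transcription factors used mainly in testis, epididymis, ovary and placenta. The cluster is divided into alpha, beta and gamma subclusters, with Rhox5 to Rhox9 in beta and Rhox10 to Rhox12 in gamma. Rhox5, first known as Pem, is the founding member, active in Sertoli cells, in extraembryonic tissues and in embryonic stem cells. Several genes of the cluster are silenced by DNA methylation in the embryo proper. In the RefSeq table of assembly GRCm38.p6 the cluster held 42 entries named Rhox, of which 33 were protein coding, 8 were pseudogenes and 1 was a long noncoding RNA. The members stood in it in the order Rhox5, Rhox6, Rhox9, Rhox11 and Rhox13. The other Rhox genes, among them the multiplied Rhox2, Rhox3 and Rhox4 genes, had no named probe here (0 measured). Spots with several gene symbols were not counted as named, so a probe shared by such genes would be missed. Rhox genes resemble each other, probe sequences were not examined, and how much signal each probe took from a relative is unknown.

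Promoter windows are shown because members next to each other in the cluster had different ratios. The RefSeq promoter table of GRCm38.p6 held windows for 3 members, Rhox5 at chrX:37754358-37754657 on the plus strand, Rhox11 at chrX:38085090-38085389 on the minus strand and Rhox13 at chrX:38120590-38120889 on the plus strand. Each runs 5′ to 3′ along the gene from 250 bases before the annotated start to 50 bases after it, in lower case with every CG dinucleotide, the target of DNA methylation, in capitals.
Rhox5: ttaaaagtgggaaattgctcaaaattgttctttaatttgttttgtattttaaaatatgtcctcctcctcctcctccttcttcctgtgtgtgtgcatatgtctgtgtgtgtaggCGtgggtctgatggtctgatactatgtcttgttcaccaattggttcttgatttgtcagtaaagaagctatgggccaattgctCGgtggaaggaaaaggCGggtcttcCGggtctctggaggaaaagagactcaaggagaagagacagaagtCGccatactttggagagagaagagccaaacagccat
Rhox11: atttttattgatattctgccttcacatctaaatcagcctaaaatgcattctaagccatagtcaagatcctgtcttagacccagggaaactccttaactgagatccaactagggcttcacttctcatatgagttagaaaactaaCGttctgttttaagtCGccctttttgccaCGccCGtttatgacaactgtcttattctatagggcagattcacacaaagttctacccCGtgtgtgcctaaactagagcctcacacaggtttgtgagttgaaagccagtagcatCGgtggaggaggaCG
Rhox13: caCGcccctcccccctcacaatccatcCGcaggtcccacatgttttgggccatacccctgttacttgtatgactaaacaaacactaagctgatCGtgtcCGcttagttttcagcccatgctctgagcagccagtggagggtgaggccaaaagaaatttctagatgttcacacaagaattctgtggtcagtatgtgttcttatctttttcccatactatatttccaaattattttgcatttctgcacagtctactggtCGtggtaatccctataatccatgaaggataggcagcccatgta

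The windows of Rhox5 and Rhox13, both below 0 on the arrays, held 5 CG dinucleotides each, and that of Rhox11 held 7. Over the 32851 windows of the table the median was 7, with quartiles of 3 and 20. The share of windows with no more CG than Rhox5 was 43.6%. The 28 Rhox windows of the table ranged from 0 to 12, with a median of 7. Rhox5 and Rhox13 had the same count and different ratios on the arrays. With windows for only 3 members, a part of CG content in the ratios was not tested.

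**Figure D1:**
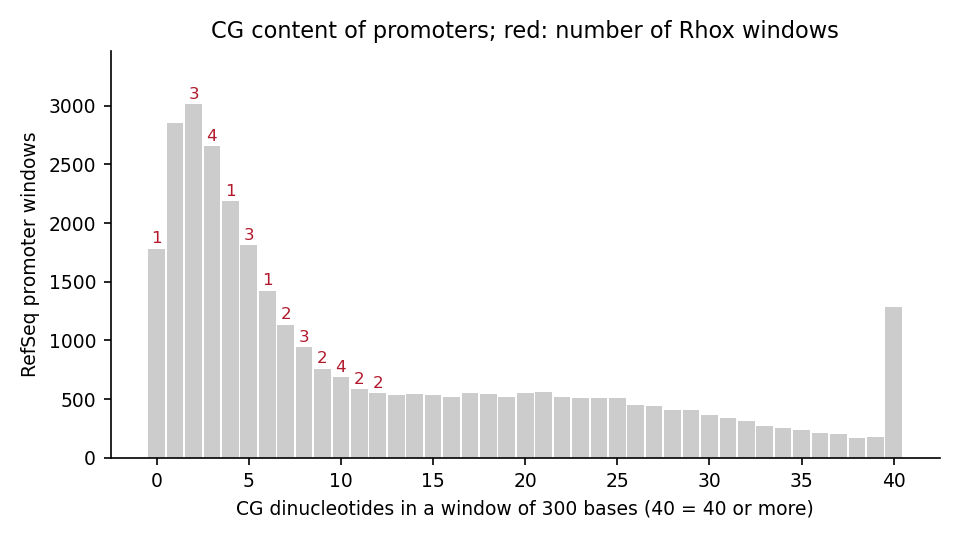
Histogram of CG dinucleotides per promoter window of 300 bases in the RefSeq table (x axis, count; y axis, number of windows), with the number of Rhox windows at each count in red. The 28 Rhox windows lie between 0 and 12.

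Sites of factor families were looked for on both strands by their letters. GGGCGG, the core of Sp1 sites, was in none of the members' windows (0) and in 35.7% of all windows. CCGGAAG, a form of the Ets site, was in the Rhox5 window on the minus strand, at position −34 from the annotated start. Ets factors and Sp1 are known activators of the distal promoter of Rhox5, and whether this window is that promoter was not examined. CCGGAAG was in 8.86% of all windows and in 8 of the 28 Rhox windows, which are Rhox5 and 7 of the Rhox2 genes. GATAA, for GATA factors, was in the Rhox13 window on the minus strand and in 25.4% of all windows. ATGCAAA, part of the octamer bound by Oct4, was in the Rhox13 window and in 4.63% of all windows, and TATAAA was in none of the 3 (0, against 13.6% of all windows). A match is a run of letters and not a shown site, and the absence of one says nothing of the factor.

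Rhox5 was brighter in the disruptant on both arrays, whichever dye the disruptant carried. Its deposited log10 values were −0.925 on array 1 and 1.41 on array 2. As log2 ratios these are −3.07 and −4.68. The signal in the transformant was thus 8.40-fold lower on array 1 and 25.7-fold lower on array 2, with a mean of −3.88 ± 1.14 (SD, n = 2), or 14.7-fold. No named gene was lower than Rhox5 on both arrays (0 of 19087), which follows from its being the lowest entry on array 2.

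The arrays differed in how far Rhox5 stood from the rest. On array 2 it was the lowest of all entries, and the next, Ly6c1, a surface protein gene, had −4.12 there and 0.03 on array 1. On array 1 it was number 17 from below. Of the 16 entries under it on array 1, 6 were named genes, 2 were at least 2-fold lower on array 2 as well, and 6 were at least 2-fold higher there. The gap of 1.61 between the arrays for Rhox5 was wider than that of 95.4% of all entries.

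Rhox6 and Rhox9, once named Psx1 and Psx2 for their expression in placenta, gave values close to each other. Rhox6 had −1.22 on array 1 and −1.69 on array 2, a mean of −1.45 ± 0.34 (SD, n = 2) or 2.74-fold lower in the transformants. Rhox9 had −1.44 and −1.44, a mean of −1.44 ± 0.0023 (SD, n = 2) or 2.71-fold lower. Their order changed with the array, since Rhox6 minus Rhox9 was 0.23 on array 1 and −0.26 on array 2, a mean of −0.01 ± 0.34 (SD, n = 2). The 2 neighbours in the ranking therefore did not differ beyond their spread.

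Rhox9 had the closest match between arrays of any named gene that was at least 2-fold lower on both. Its arrays differed by 0.0033, whereas the median difference over those 50 genes was 0.51 and the largest 2.67. With 2 arrays such a small SD is 1 difference and measures the precision of the gene poorly.

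Rhox13, a testis gene of germ cells at the far end of the cluster, lay just short of a 2-fold difference on both arrays. It had −0.92 and −0.98, a mean of −0.95 ± 0.04 (SD, n = 2) or 1.94-fold lower in the transformants. On array 1 it was lower than all but 2.90% of entries and on array 2 lower than all but 5.21%. Both values were nearer to 0 than those of Rhox5, Rhox6 and Rhox9, though not than those of Rhox11. The mean difference was −0.50 ± 0.30 for Rhox6 minus Rhox13 and −0.49 ± 0.04 for Rhox9 minus Rhox13 (SD, n = 2).

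Rhox11, a gamma gene, was the exception. Its deposited log10 values were 0.25 on array 1 and 0.0166 on array 2, so Cy5 was the brighter dye on both, and the log2 ratios were 0.83 and −0.06. The mean was 0.39 ± 0.63 (SD, n = 2), which does not exceed its spread. On array 1 it lay at the 96.5 percentile of all entries and on array 2 at 38.4. Rhox11 was above Rhox13 on both arrays, by 1.75 on array 1 and 0.93 on array 2, although in the RefSeq order 2 annotated genes separate them.

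**Figure D2:**
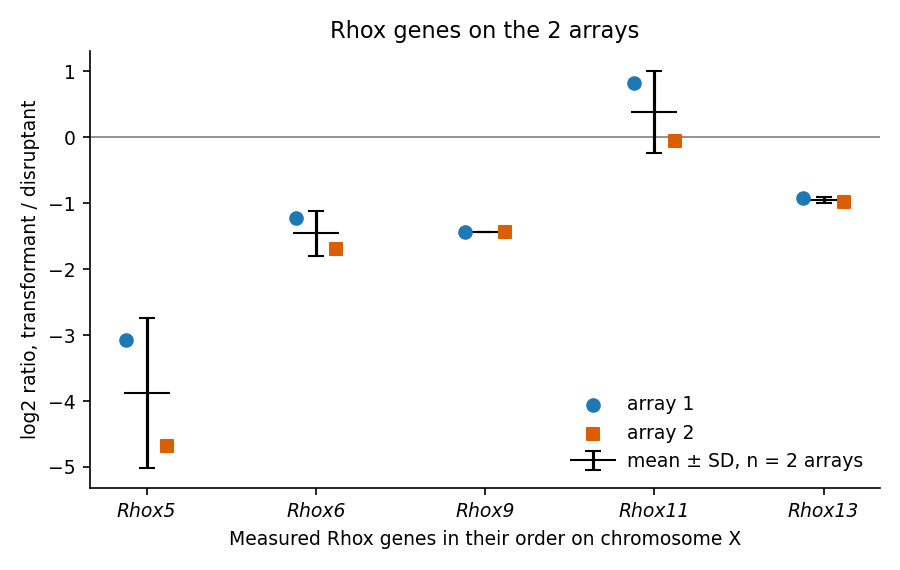
Log2 ratio of transformant over disruptant (y axis) for the 5 measured Rhox genes in chromosome order (x axis), with array 1 as circles, array 2 as squares and the mean with its SD (n = 2 arrays) as a bar. Rhox5 lies at −3.07 and −4.68, Rhox6, Rhox9 and Rhox13 between −0.92 and −1.69, and Rhox11 at 0.83 and −0.06.

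Read along the cluster, the ratio was furthest below 0 at Rhox5, intermediate at Rhox6 and Rhox9, highest at Rhox11, with 0.83 on array 1 and −0.06 on array 2, and again below 0 on both arrays at Rhox13. On both arrays Rhox5 was the lowest member, Rhox13 the fourth from below and Rhox11 the highest. Rhox5 minus Rhox6 was −1.86 on array 1 and −2.99 on array 2, and Rhox5 minus Rhox9 was −1.63 and −3.24. Only Rhox6 and Rhox9 changed places among the 10 pairs of members. The members were picked with these values known, so the order was not tested.

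The count of members has to be set against the whole table. Below 0 on both arrays were 4 of the 5 members, against 17% of all entries, and above 0 on both were 0, against 21%. At least 2-fold lower were 3 of 5 on array 1, against 2.4% of all entries, and 3 of 5 on array 2, against 4.98%. At least 2-fold lower on both were 3 of 5, against 0.193% of all entries, and 0 of 5 were 2-fold higher on both, against 0.0166%. These counts come from the contrast that chose the members, and nothing is read from them. Over all 30110 entries limma called 0 genes at an adjusted p of 0.05 (0%), 507 entries lower (1.68%) and 440 higher (1.46%) at an unadjusted p of 0.05, and 0 also with robust variances or with treat at 1.2-fold. The smallest adjusted p was 1, and with 1 residual degree of freedom this 0 says nothing about any gene.

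**Figure D3:**
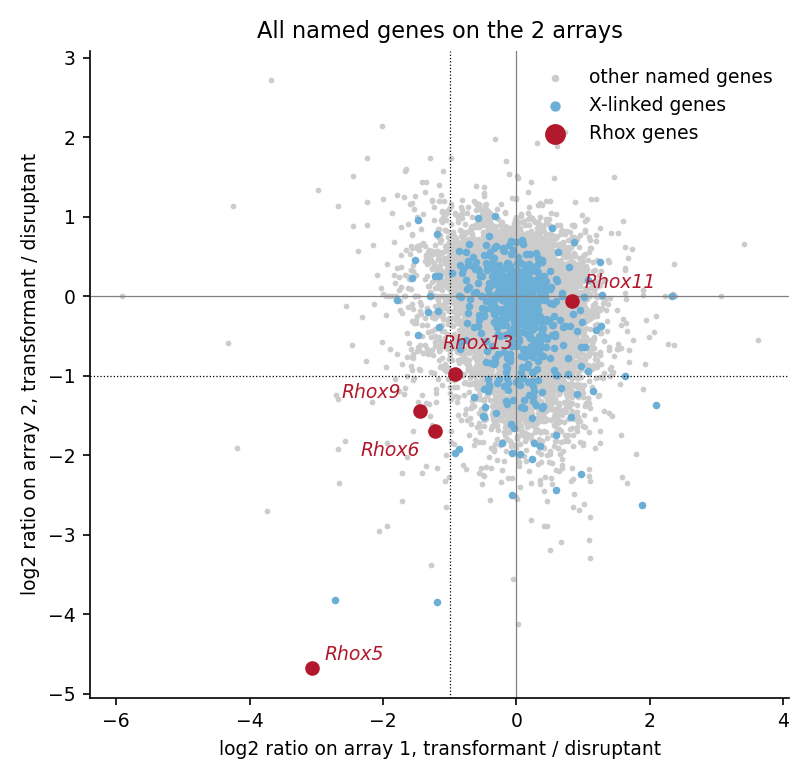
Log2 ratio of transformant over disruptant on array 1 (x axis) and array 2 (y axis) for 19087 named genes, with X-linked genes in blue, the Rhox genes in red and dotted lines at −1. Rhox5 lies at the lower edge of the cloud at −3.07 and −4.68, and Rhox6 and Rhox9 lie just beyond −1 on both arrays.

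None of the measured genes around the cluster was 2-fold lower on both arrays, although some were on 1 array. Only 0.193% of all entries were 2-fold lower on both, so nothing is read from their absence among so few genes. Of the 10 measured genes on each side, the ratio was negative on both arrays for 3 of 20, against 17% of all entries. It was positive on both for 3, against 21%. At least 2-fold lower were 1 on array 1, 2 on array 2 and 0 on both, against 2.4%, 4.98% and 0.193% of all entries. Their medians were 0.10 on array 1 and −0.17 on array 2. The nearest on the side of Rhox5 were Gm9 (−0.30 and 0.04), Rnf113a1, a spliceosome gene (0.45 and 0.08), Ndufa1, a gene of respiratory complex I (0.57 and −0.92), and Akap14 (0.68 and 0). Between Gm9 and Rhox5 the table lists 34 genes without a named probe, most of them Rhox genes, so the values of that stretch are unknown here.

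Inside the cluster, Btg1b, between Rhox9 and Rhox11, had −0.32 and 1.01. Beyond Rhox13 lay Zbtb33, whose product Kaiso binds methylated DNA, with 0.37 and −0.64, and Tmem255a with −0.13 and 0.19. These 2 genes are followed by a Rhox7 pseudogene and count as inside for that reason alone. Further on, Atp1b4 had −1.18 and −0.18, the lysosomal membrane gene Lamp2 0.08 and −0.89, and the ubiquitin ligase gene Cul4b 0.97 and −2.23. Several of these genes changed sign between the arrays, as Btg1b and Cul4b did. Rhox11 did too, whereas Rhox5, Rhox6, Rhox9 and Rhox13 kept theirs. A change of sign or a value of 0 was found in 18665 of 30110 entries and in 14 of the 20 flanking genes. The members were picked with these values known, so nothing is read from this difference.

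The remaining genes of the stretch were closer to 0 or of mixed sign. On the Rhox5 side Nkrf had 0.26 and −0.76, Septin6 −0.48 and −0.16, Sowahd 0.23 and −0.08, Rpl39 0.14 and −0.76, Snora69 −0.34 and 0.61, and Nkap 0.59 and −0.99. On the other side Mcts1 had 0.12 and −1.31, C1galt1c1 0.07 and −0.30, 6030498E09Rik 0.03 and −0.14, Gria3 0.05 and 0.06, the mRNA export gene Thoc2 0.41 and 0.18, and the apoptosis inhibitor gene Xiap −0.07 and −0.26. Cypt15 was listed at exactly 0 on both arrays.

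**Figure D4:**
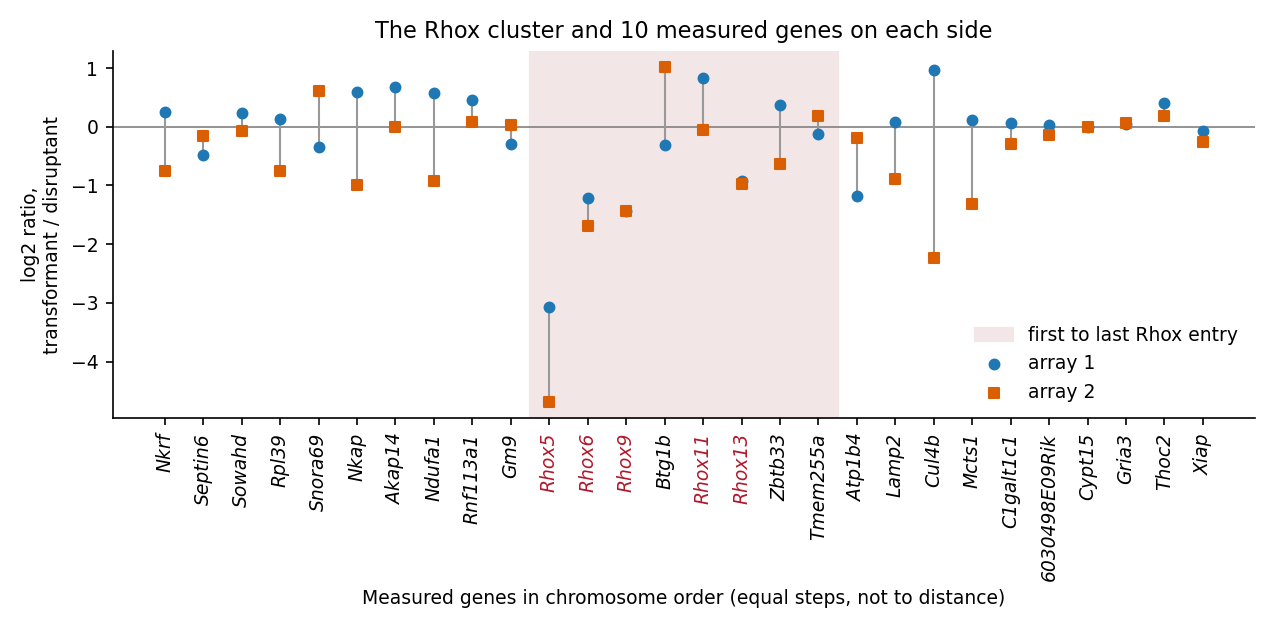
Log2 ratio of transformant over disruptant (y axis) on array 1 (circles) and array 2 (squares) for the measured genes in chromosome order (x axis, equal steps), with the span from the first to the last Rhox entry shaded and the Rhox members in red letters. Rhox5, Rhox6 and Rhox9 lie below −1 on both arrays. The 20 flanking genes have medians of 0.10 and −0.17, and Cul4b, at −2.23, is lower than Rhox6 and Rhox9 on array 2 only.

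The 676 named genes on X had medians of 0.01 on array 1 and −0.07 on array 2, against 0.0053 and 0 for 18273 autosomal genes. Below 0 on both arrays were 163 genes on X (24.1%), against 19.3% of autosomal genes. On array 2 the X-linked genes reached lower, with 67 of 676 at least 2-fold lower against 967 of 18273 autosomal genes, and lower quartiles of −0.44 and −0.29. On array 1 these counts were 18 and 372. Centred on the median of X-linked genes, Rhox5 had a mean of −3.85, Rhox6 −1.42, Rhox9 −1.41 and Rhox13 −0.92. X-linked genes 2-fold higher on both arrays numbered 0, against 0.0166% of all entries. At least 2-fold lower on both were 6 (0.888%, against 0.193% of all entries), which were Rhox5, Rhox6 and Rhox9 and 3 others. The 3 others were Fmr1nb, a testis gene beside Fmr1 (−2.72 and −3.82), Mcf2 (−1.19 and −3.85), and Stard8 (−1.41 and −1.46). Without the Rhox members the share on X was 3 of 671 (0.447%), against 0.235% of autosomal genes. From below among X-linked genes by the mean, Rhox5 was number 1, Rhox6 number 4, Rhox9 number 6, Rhox13 number 17 and Rhox11 number 655.

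Few genes lay near Rhox5, taking the distance between log2 ratios in the plane of the 2 arrays. As the entry with the lowest mean, Rhox5 sits at the edge of that plane, so few near genes are no separate result. Fmr1nb was the nearest at 0.93 and the only named gene within 1 unit. It was followed by the ribosomal protein gene copy Rpl39l (2.00), Mcf2 (2.06), the autophagy receptor gene Calcoco2 (2.09) and the lipid phosphatase gene Inpp5d (2.12). Rhox6 and Rhox9 were 3.52 and 3.63 away from Rhox5. They sat in a denser part of the plane, with 231 other genes within 1 unit of Rhox6 and 226 of Rhox9, and were 0.34 from each other.

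The genes nearest to Rhox6 were Acot10 (0.06), Cidea (0.08), Efemp1 (0.09), Myl7 (0.21) and Afap1l2 (0.24). Cidea encodes a lipid droplet protein, Efemp1 an extracellular matrix protein and Myl7 an atrial myosin light chain. Nearest to Rhox9 were Stard8 (0.04), Plac8 (0.12), the glutamate transporter gene Slc1a1 (0.13), Sapcd1 (0.15) and Myl7 (0.16). Likeness over 2 arrays is a weak measure, and many genes had a near match by it.

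Factors that set or read DNA methylation and heterochromatin, among them known silencers of Rhox genes, had more low values on array 2, as the whole table did. Of 36 measured, 12 had negative ratios on both arrays (33.3%, against 17% of all entries) and 2 positive ones on both (against 21%). Past 2-fold on both were 0, against 0.193% of all entries lower and 0.0166% higher. On array 1 none (0) was at least 2-fold lower, against 2.4% of all entries, and on array 2 alone 3 were, against 4.98%. These were the chromatin remodeller gene Hells (0.62 and −1.60), the Polycomb methyltransferase gene Ezh2 (0.51 and −1.05) and the deacetylase gene Hdac1 (−0.08 and −1.05), chosen after their values were seen. The medians of the list were −0.09 and −0.25. The lowest by the mean were Cbx1, a heterochromatin protein gene (−0.86 and −0.65), and Dnmt3l, the cofactor of the de novo methyltransferases (−0.83 and −0.43). The highest were Tet3, a 5-methylcytosine oxidase gene (0.28 and 0.35), and the methyltransferase gene Dnmt3b, whose values had opposite signs (0.96 and −0.58).

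Transcription factors tied to the Rhox5 promoters had mixed signs or a value of 0 in 9 of 14 cases. Over all entries this held for 18665 of 30110, so nothing is read from it. Of 14 measured, the ratio of 3 was negative and of 2 positive on both arrays, against 17% and 21% of all entries. Their medians were −0.05 and −0.02. Past 2-fold on both were 0, against 0.193% of all entries lower and 0.0166% higher. Sp1 had −0.39 and −2.56 and the Ets family gene Gabpa 0.16 and −1.32, so array 2 was the low one in both. Wt1, a factor of the developing gonad, had 0.67 and 0.83, and Elf1, another Ets family gene, 0.23 and 0.16. Genes that respond to Rhox5 in mouse Sertoli cells had negative ratios on both arrays in 3 of 8 cases and positive ones in 0. The shares of all entries were the same 17% and 21%, and the medians of these genes were −0.06 and −0.05. Among them Adipoq, the adiponectin gene, had −0.31 and −1.22, Adipor2 −0.06 and −0.20, Pparg −0.11 and 0.20, and Ppargc1a 0.25 and −0.01.

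Germ line genes that DNA methylation silences in the embryo, as it does several Rhox genes, were mixed. Of 25 measured, 8 had negative and 5 positive ratios on both arrays, against 17% and 21% of all entries. At least 2-fold lower on both was 1, against 0.193%, and the medians were −0.27 and 0. The lowest were Dppa3, a maternal factor and germ cell marker (−2.66 and −2.35), and the piRNA pathway gene Tdrd12 (−0.97 and −1.83). The highest were Asz1 (0.79 and 0.32) and Dpep3 (0.24 and 0.34). Rhox6 and Rhox9 are also active in primordial germ cells of the mouse. Regulators of these cells had negative ratios on both arrays in 7 of 10 cases and positive ones in 2, beside the same 17% and 21%. Their medians were −0.90 and −0.68. Besides Dppa3, which both lists hold, Lin28a had −2.55 and −0.12, while Dnd1 had 0.61 and 0.89 and Ifitm3 0.02 and 0.36. The regulators also share Dppa5a with the embryonic stem cell markers and Tfap2c with the trophoblast genes below. Their median is thus not a measure of germ cells alone.

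The tissues where Rhox5, Rhox6 and Rhox9 are best known were covered by lists of trophoblast, primitive endoderm and gonad genes. Of 19 trophoblast and placenta genes, 8 had negative and 2 positive ratios on both arrays, against 17% and 21% of all entries. Their medians were −0.22 and −0.39. Tfap2c, a regulator of trophoblast and germ cells, had −0.85 and −0.98, and Esx1, an X-linked placental homeobox gene, had −1.17 and −0.39. Hand1, which drives giant cell fate, had 0.76 and 0.23, and Fgfr2 0.02 and 0.50. Neither Tfap2c nor Esx1 was as low as Rhox6 or Rhox9 on the 2 arrays.

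Of 18 primitive endoderm genes, 6 had negative and 0 positive ratios on both arrays, against 17% and 21% of all entries. Their medians were −0.17 and 0.01. Lowest were Amn, a part of the cubilin receptor complex, at −1.22 and −0.63, and Lama1, a laminin chain gene, at −1.57 and −0.09, while the lineage regulators Gata4 and Gata6 had −0.04 and 0.40, and −0.08 and 0.44. Of 15 Sertoli and gonad genes 3 had negative and 4 positive ratios on both arrays, beside the same 17% and 21%. Their medians were −0.28 and 0.18. Nr0b1, an X-linked nuclear receptor gene, had −0.73 and −0.34, Dmrt1 −1.59 and 0.53, and Inhba 1.06 and 0.09. Wt1, given above, was the highest of this list as well. In bulk cells a ratio cannot tell fewer cells of a type from less RNA per cell, and the part of such cells in the Rhox values was not tested.

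Of 28 other homeobox genes of the paired-like kind, 1 was 2-fold lower on array 1 and 0 on array 2, against 2.4% and 4.98% of all entries. Among them 7 had negative ratios on both arrays and 1 a positive one on both, against 17% and 21%. Past 2-fold on both were 0, against 0.193% of all entries lower and 0.0166% higher. The medians were −0.11 and −0.0010. After Esx1 the lowest was Gsc, the goosecoid gene of the organizer, with −0.55 and −0.67. The highest by the mean were Duxbl1 (1.66 and −0.44) and Obox2 (−0.18 and 1.07), each with opposite signs on the 2 arrays.

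Embryonic stem cell markers had medians of −0.58 and −0.51, beside 0 and 0 for all entries. Negative ratios on both arrays were found for 10 of 15 and positive ones for 2, against 17% and 21% of all entries. The lowest by the mean were Zfp42, also called Rex1 (−1.54 and −1.69), and the pluripotency factor gene Klf4 (−1.55 and −0.72). The highest were Pou5f1, the Oct4 gene (0.10 and 0.50), and Utf1 (0.10 and 0.46). Of 10 fibroblast markers 2 had negative and 2 positive ratios on both arrays, beside the same 17% and 21%. Their medians were −0.07 and 0.07. Thy1 had −1.06 and −0.91, Vim −0.26 and −0.23, Lum 0.12 and 0.12, and Pdgfrb 1.37 and 0.45. The stem cell markers had medians on the same side of 0 as Rhox5, Rhox6, Rhox9 and Rhox13, and their part in those values was not tested.

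**Figure D5:**
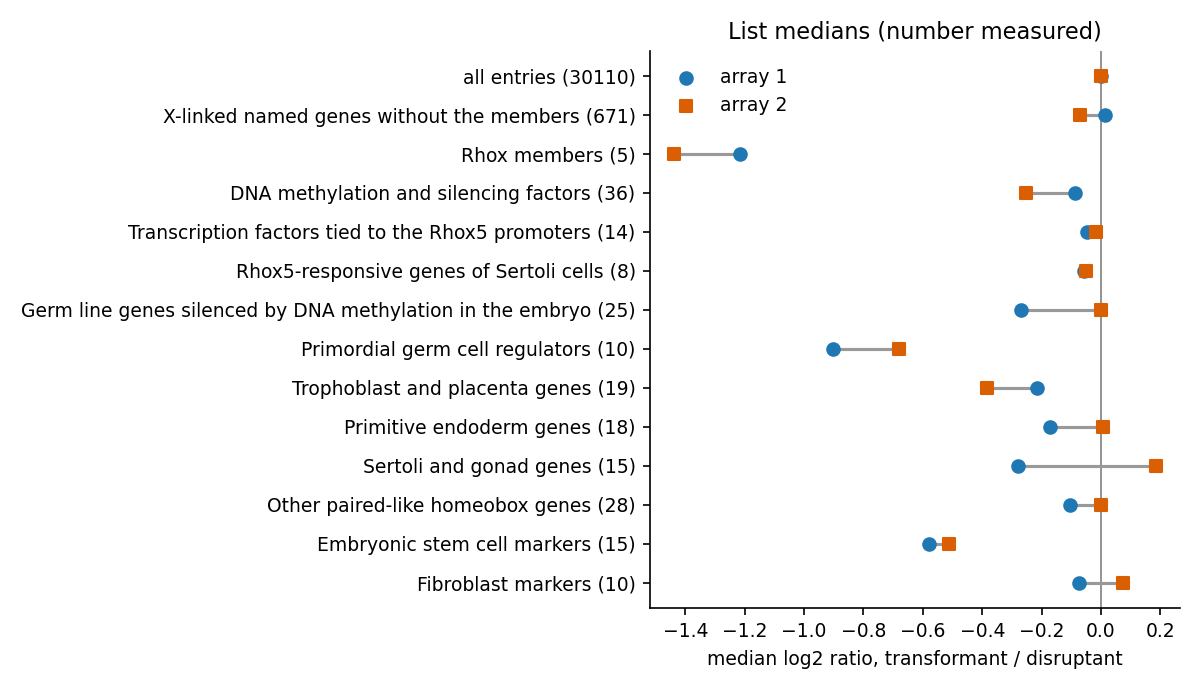
Median log2 ratio of transformant over disruptant (x axis) on array 1 (circles) and array 2 (squares) for each gene list (y axis, number measured in brackets), for all entries and for X-linked genes without the members. The Rhox members have medians of −1.22 and −1.44, and the next furthest below 0 are the primordial germ cell regulators at −0.90 and −0.68. Some genes stand in more than 1 list, such as Dppa5a among these regulators and the stem cell markers.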

How the data were processed

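The authors deposited 1 log10 ratio per spot and array, 43790 spots on 2 arrays. They came from Agilent Feature Extraction, per the submitters' processing notes. The version and any correction for background or dye were not given in the sources used here. Also unstated is the log10 scale, which was taken from the convention of that program. Values ranged from −2.69 to 1.39 and from −2.41 to 1.89 with medians of 0. No depth applies to arrays, and their number limits the precision.

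Values were put on the log2 scale with a factor of 3.32, and those of array 2 were changed in sign. Of the spots, 32042 had 1 gene symbol, 47 several and 11701 none in GEO's platform annotation. Of the latter, 725 below −1 in log10 on both arrays were left out. They were taken to be control spots from these values alone. Probes of a gene were averaged, giving 30110 entries, and 18962 named genes had a chromosome in the RefSeq table. The mean was tested against 0 with limma 3.58.1 in R 4.3.3 (lmFit, eBayes, Benjamini-Hochberg). Lists, 12 in all, were described by counts and medians without a test.

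The members, lists and rules were chosen with earlier results of these data known. Genes named were the members, the flanking genes, the 5 nearest genes to Rhox5, Rhox6 and Rhox9, the 2 lowest and 2 highest of each list, X-linked genes 2-fold lower on both arrays, and Tcl1. Ly6c1 was chosen after its values were seen. Alternatives were other centring, scaling, spot filters, fold limits, scale and single arrays. The labels call the clones biological replicates, and an SD measures the spread between these 2 pairs. It is unknown here if disruptant clone 6 also derives from clone 4, so the arrays may not be independent.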

Additional observations from a re-analysis of the deposited data

How the results depend on the processing

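The signs of Rhox5, Rhox6, Rhox9 and Rhox13 were the same under each alternative run. Both arrays were below 0 for these genes, and the other settings only rescaled the values or shifted them slightly. The alternatives could therefore hardly have turned a sign, and its sameness says nothing of stability. From 1 array alone the values ranged from −4.68 to −3.07 for Rhox5, −1.69 to −1.22 for Rhox6, −1.44 to −1.44 for Rhox9, −0.98 to −0.92 for Rhox13 and −0.06 to 0.83 for Rhox11, whose sign thus rested on array 1. If the deposited values were log2 and not log10, the means would be −1.17 for Rhox5, −0.44 for Rhox6, −0.43 for Rhox9 and −0.29 for Rhox13, and 0 entries would be 2-fold lower or higher on both arrays. Centring on named genes gave −1.44 and on X-linked genes −1.41 for Rhox9, beyond its very small SD. Of entries 2-fold lower on both arrays there were 58, against 286 at 1.5-fold, 104 with each probe by itself, and 724 to 1499 on single arrays. For higher entries the main count was 5, against 109 at 1.5-fold, 9 with each probe by itself, 3 with listed probes alone and 242 to 599 on single arrays. The limma count was 0 under 8 other settings too, but with 1 residual degree of freedom these zeros say nothing of stability. At an unadjusted p of 0.05 there were 947. The median of X-linked genes ranged from −0.07 to 0.01 on single arrays, and that of the 20 flanking genes from −0.17 to 0.10. Of 60 list medians under an alternative, 47 moved by less than the spread between arrays. Some alternatives, such as centring on named genes, hardly change the values, so this count says little of stability. Since each member had 1 probe, no lowest or highest probe could be taken. No paired analysis was possible because each ratio already sets both groups against each other on 1 array. Signal over background is unknown here.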
